A study of Saccharomyces cerevisiae with 24 samples.

Results

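RNA isolated by hot acid phenol was compared with RNA isolated with the Qiagen RNeasy kit from the same unstressed yeast cultures. The comparison rests on 8 of the 24 libraries of the series, 4 of the Phenol method and 4 of the RNeasy method, chosen by their labels and not by their values. Both groups are the laboratory strain BY4741, a MATa haploid with deletions in HIS3, LEU2, MET15 (also called MET17) and URA3, grown at 30 °C in synthetic complete medium and collected before any heat shock. Each of the 4 biological replicates is a culture that was split into identical samples, so a Phenol and an RNeasy library with the same number come from the same cells. The Phenol samples were lysed with hot acid phenol and SDS, and the RNA was then cleaned on an RNeasy column with DNase. The RNeasy samples were broken with beads in the lysis buffer of the kit and bound to the same kind of silica column, also with DNase. Libraries were prepared together from poly-A enriched RNA and shared a sequencing lane. Each method is a whole procedure, so its steps cannot be told apart. RNA integrity was not analysed here, so a difference in it was not separated from the method. The study measured it, reported it as higher on average with Phenol, and also fitted a model with it as a factor.

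An mRNA is not free in the cell. mRNAs of secreted and membrane proteins are translated on ribosomes bound to the endoplasmic reticulum, whereas mRNAs of cytosolic, nuclear and most other soluble proteins are translated on free ribosomes. In yeast the wall and surface proteins, the glycolytic enzymes and the ribosomal proteins account for much of the mRNA of a growing cell. The question of the comparison was whether transcripts of some protein classes come out at another relative abundance with 1 method than with the other, and here above all classes that are not membrane proteins. For each gene list, the mRNAs that rose or fell are counted. The same counts over all transcripts tested are given once, as the background for reading the lists.

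The deposited values are TPM, the share of a transcript among all transcripts of its library after correction for length, set to the same total in every library. More of some transcripts and less of the others cannot be told apart, and the read depth is unknown. A trimmed mean of log ratios therefore served to scale the libraries to each other, and all values of single genes below are scaled TPM unless stated otherwise. The factors lay between 0.7733 and 0.9012 for the Phenol libraries and between 1.016 and 1.049 for the RNeasy libraries. The 10 most abundant transcripts took 14.07% to 16.38% of the TPM in the Phenol libraries and 9.356% to 10.56% in the RNeasy libraries. Correlations of log2(TPM + 1) were 0.9782 to 0.987 among Phenol libraries, 0.9854 to 0.9935 among RNeasy libraries and 0.959 to 0.9727 between the methods. The median SD of a transcript was 0.154 on the log2 scale for Phenol and 0.105 for RNeasy (n = 4 each). The deleted genes URA3 and MET17 were listed at 0 TPM in all 8 libraries, and LEU2 had at most 0.09 TPM. HIS3, of which BY4741 keeps a part, had 73.5 to 87.0 TPM in Phenol and 89.3 to 112 TPM in RNeasy. STE2, the pheromone receptor of MATa cells, had 686 to 866 TPM in Phenol and 612 to 694 TPM in RNeasy, while STE3, its counterpart in MATα cells, stayed between 3.84 and 6.51 TPM in all 8.

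The mRNAs that carried the comparison differed in base composition, which can be seen in the open reading frames (ORFs) themselves. The following stretches of 120 coding bases were cut from 4 ORFs whose transcripts rose with Phenol (SIM1, ILV6, PDC1 and LAS17) and from 4 whose transcripts fell (EAF7, RRP36, CGR1 and FYV7), each at the place where its A content was close to that of the whole ORF. All are written 5′ to 3′ on the coding strand, from the RefSeq copy of the S288c genome (build R64), and capitals mark every A.
SIM1: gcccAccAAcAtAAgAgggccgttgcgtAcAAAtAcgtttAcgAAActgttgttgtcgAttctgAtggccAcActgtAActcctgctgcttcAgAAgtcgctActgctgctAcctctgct
ILV6: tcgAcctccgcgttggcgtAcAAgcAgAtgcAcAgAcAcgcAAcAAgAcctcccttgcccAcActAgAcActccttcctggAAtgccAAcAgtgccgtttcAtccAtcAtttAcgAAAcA
PDC1: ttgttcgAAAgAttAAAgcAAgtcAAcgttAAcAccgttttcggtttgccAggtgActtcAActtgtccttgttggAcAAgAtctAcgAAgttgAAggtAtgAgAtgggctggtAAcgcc
LAS17: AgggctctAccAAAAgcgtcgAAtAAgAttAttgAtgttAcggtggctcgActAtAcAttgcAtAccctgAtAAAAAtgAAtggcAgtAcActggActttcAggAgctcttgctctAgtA
EAF7: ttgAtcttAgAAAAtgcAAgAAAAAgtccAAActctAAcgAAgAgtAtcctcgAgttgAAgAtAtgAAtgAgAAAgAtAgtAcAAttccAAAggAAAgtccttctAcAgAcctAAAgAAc
RRP36: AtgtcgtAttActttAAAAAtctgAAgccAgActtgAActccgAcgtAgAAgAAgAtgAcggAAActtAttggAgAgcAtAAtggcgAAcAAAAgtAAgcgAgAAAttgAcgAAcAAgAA
CGR1: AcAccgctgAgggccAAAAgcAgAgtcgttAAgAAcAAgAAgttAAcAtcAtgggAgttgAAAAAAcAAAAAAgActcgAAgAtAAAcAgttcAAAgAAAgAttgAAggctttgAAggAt
FYV7: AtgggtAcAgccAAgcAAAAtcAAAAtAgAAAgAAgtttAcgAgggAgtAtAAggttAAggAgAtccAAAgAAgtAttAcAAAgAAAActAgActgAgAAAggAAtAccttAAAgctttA

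The stretch of SIM1 lies at chrIX:128238-128357 (+ strand) and holds 27 A in 120 bases, that of ILV6 at chrIII:105348-105467 (- strand) with 33, that of PDC1 at chrXII:233935-234054 (- strand) with 32 and that of LAS17 at chrXV:675978-676097 (+ strand) with 36. The stretch of EAF7 lies at chrXIV:370770-370889 (+ strand) and holds 52 A, that of RRP36 at chrXV:851720-851839 (- strand) with 50, that of CGR1 at chrVII:440141-440260 (+ strand) with 54 and that of FYV7 at chrXII:271008-271127 (+ strand) with 56. Over the whole ORF, A made up 22.4% of SIM1, 27.1% of ILV6, 26.4% of PDC1 and 30.1% of LAS17, and 43.4% of EAF7, 41.9% of RRP36, 45.2% of CGR1 and 46.3% of FYV7. All 8 are ORFs without a predicted membrane-spanning stretch. The relation over all ORFs is given further on.

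Of 5870 transcripts tested, 2568 (43.7%) differed between Phenol and RNeasy at an FDR under 0.01 in limma, with 1378 (23.5%) higher and 1190 (20.3%) lower in Phenol. These shares are the background for every list below. Changes were modest, with a median absolute log2 fold change of 0.30. Of the 1378, 1374 were higher in all 4 same-number pairs of libraries, and 1175 of the 1190 were lower in all 4. The test used these same libraries and favours such transcripts, so this agreement is no separate result. At least 2-fold differences were found for 94 transcripts that were higher and 12 that were lower. The median log2 fold change was -0.01 after scaling. On the TPM as deposited the median was -0.29, and the split was 738 higher and 2622 lower. With quantile normalization, which gives every library the same distribution of values, 1207 were higher and 1206 lower. Of the named genes and list medians beyond 0.15 in size, 25 genes and 11 lists then moved by over 1.5 times, 22 and 10 of them to smaller values, among them SIM1 (0.82), ILV6 (0.82), CYS3 (0.73) and SEC61 (0.60). The balance of higher and lower transcripts therefore depends on the scaling, and each change is relative to that of the other transcripts.

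Membrane proteins were predicted by at least 1 hydrophobic window, which is 19 residues with a mean Kyte-Doolittle hydropathy of 1.6 or more. Of 3969 tested ORFs without a window, 580 rose and 1049 fell, with a median log2 fold change of -0.11. Of 1689 ORFs with a window, 775 rose and 141 fell, with a median of 0.29. Number and place of the windows went with the counts: of 797 ORFs with at least 2 windows 516 rose and 17 fell (median 0.55), of 242 with a single window near the start, as in a signal sequence, 91 rose and 11 fell (median 0.23), and of 650 with a single window elsewhere 168 rose and 113 fell (median 0.03). Thus 580 of the 1378 transcripts that rose encode proteins without a window, and a further 23 have no ORF in the reference. Among the 94 transcripts that were at least 2-fold higher, 44 had a window, 39 had none and 11 had no ORF. All 12 that were at least 2-fold lower had an ORF without a window.

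**Figure D1:**
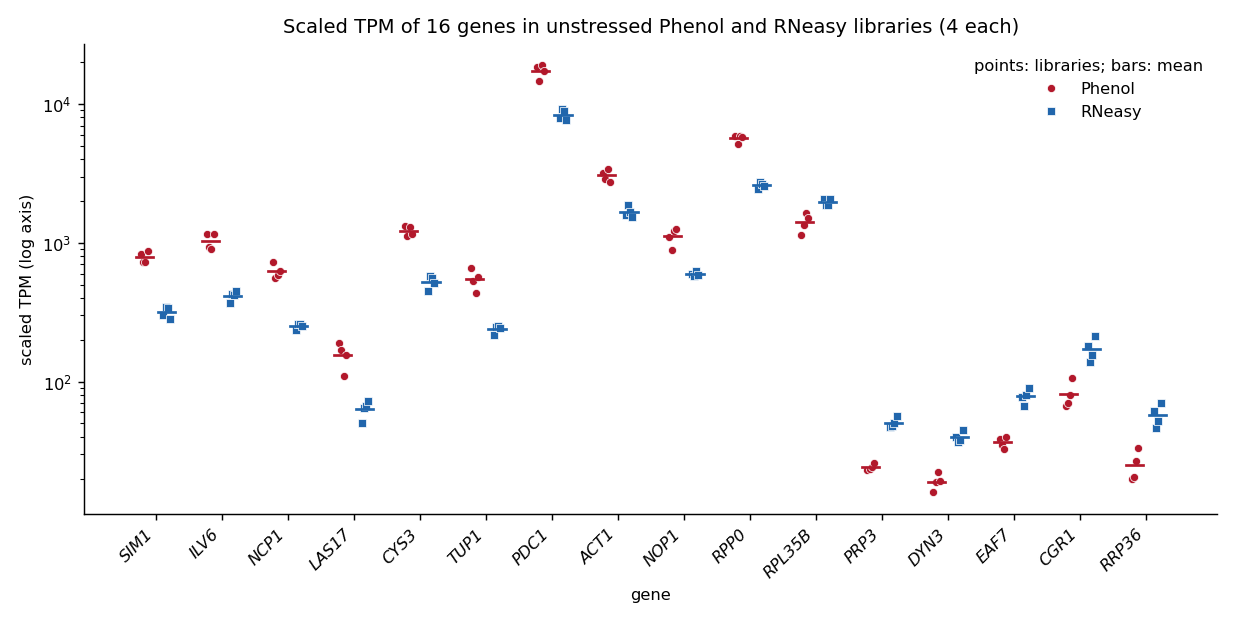
Scaled TPM (log axis) of 16 transcripts in each of the 4 Phenol and the 4 RNeasy libraries of unstressed cells; points are libraries and bars are group means. SIM1 sits between 726 and 876 in Phenol and between 282 and 346 in RNeasy, whereas RRP36 sits between 20.0 and 33.2 in Phenol and between 46.2 and 70.3 in RNeasy.

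The 10 highest fold changes among ORFs without a window, of transcripts that passed the test, were alike in all 4 pairs and averaged at least 10 TPM, belonged mostly to wall proteins, enzymes and the actin machinery. YLR285C-A, at 1.49, lay above them but was not higher in all 4 pairs. SIM1 (chrIX:128151-129581), a wall-associated protein of the SUN family, had 827, 726, 727 and 876 TPM with Phenol and 304, 346, 339 and 282 TPM with RNeasy (log2 fold change 1.31, SE 0.11, adjusted p = 1.8e-08). ILV6 (chrIII:104619-105548), the regulatory subunit of acetolactate synthase in branched-chain amino acid synthesis, had 1150, 930, 900 and 1160 TPM in Phenol and 371, 425, 419 and 447 TPM in RNeasy (1.31, SE 0.12). LAS17 (chrXV:675939-677840), the yeast WASP homolog that activates the Arp2/3 complex, had 191, 168, 109 and 156 TPM in Phenol and 50.6, 64.3, 67.0 and 73.1 TPM in RNeasy (1.26, SE 0.22). In all 3 the lowest Phenol library was above the highest RNeasy library. TUP1 (chrIII:260311-262452), a general transcriptional corepressor and thus a nuclear protein, had 655, 531, 437 and 568 TPM in Phenol and 218, 246, 250 and 244 TPM in RNeasy (1.18, SE 0.13). Its groups were also apart, so a nuclear site of the protein did not go with a loss in every case.

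CYS3, the cystathionine gamma-lyase of cysteine synthesis, followed the same pattern with 1120 to 1320 TPM in Phenol and 451 to 573 TPM in RNeasy (log2 fold change 1.23). VRP1, the verprolin that binds LAS17 protein, had 162 to 287 TPM in Phenol and 87.5 to 110 TPM in RNeasy (1.19). NCP1, the reductase that serves cytochrome P450 enzymes, had 556 to 723 TPM in Phenol and 234 to 262 TPM in RNeasy (1.29). Its protein is known to be anchored in the endoplasmic reticulum although no window was predicted. Wall proteins without a window completed the group, with HSP150 at 1.16 and TOS6 at 1.15. YER188C-A, at 12.6 to 24.1 TPM in Phenol and 5.07 to 9.66 TPM in RNeasy, had a log2 fold change of 1.21 (adjusted p = 0.0019 by limma), which rested on single libraries: without Phenol replicate 4 the adjusted p was 0.0103, and without RNeasy replicate 1 it was 0.0127.

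The 10 lowest fold changes under the same limits belonged for the most part to nuclear and nucleolar proteins. EAF7 (chrXIV:370368-371645), a subunit of the NuA4 histone acetyltransferase, had 38.6, 35.1, 32.9 and 39.9 TPM in Phenol and 77.2, 67.3, 79.8 and 89.7 TPM in RNeasy (log2 fold change -1.08, SE 0.083, adjusted p = 1.3e-08). RRP36 (chrXV:850937-851839), which acts in early cleavage of pre-rRNA, had 20.0, 20.6, 26.9 and 33.2 TPM in Phenol and 61.6, 46.2, 51.7 and 70.3 TPM in RNeasy (-1.17, SE 0.19). CGR1 (chrVII:440063-440425), a nucleolar protein needed for the 60S subunit, had 66.6, 70.1, 80.6 and 107 TPM in Phenol and 181, 139, 155 and 213 TPM in RNeasy (-1.08, SE 0.17). The groups of all 3 did not overlap. PRP3 (chrIV:1404445-1405854), a protein of the U4/U6 snRNP of the spliceosome, had 23.1, 23.6, 24.4 and 26.0 TPM in Phenol and 47.5, 48.0, 50.4 and 56.4 TPM in RNeasy (-1.03, SE 0.072).

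Others of these 10 were RRP14 (log2 fold change -1.09), TMA23 (-1.06), FYV7 (-1.04) and EFG1 (-1.02), all known for roles in making ribosomes, and DYN3 (-1.03), the light intermediate chain of dynein. The call of EFG1 rested on single libraries, with an adjusted p by limma of 0.0029 in all, 0.0175 without Phenol replicate 1 and 0.0111 without RNeasy replicate 1. The lowest fold change among the transcripts that passed the test, -1.62 (adjusted p = 0.0011), belonged to YLR154C-G, with 1730, 1130, 2700 and 888 TPM in Phenol and 6380, 6100, 4100 and 2610 TPM in RNeasy. It overlaps the rRNA genes RDN37-2 and RDN25-2, so its reads cannot be told apart from rRNA, its groups overlapped and its A content was only 16.7%. Among ORFs without a window, again from a mean of 10 TPM on and alike in all 4 pairs, the smallest p-values were found for LAP2, ATP2, PLB1, ARC40 and PFK1, which rose by log2 fold changes of 0.76 to 1.10, and for BUG1, DOS2, RUD3, SUB1 and PEX19, which fell with log2 fold changes of -0.83 to -1.01. BUG1 and RUD3 are coiled-coil proteins of the Golgi, SUB1 is a transcriptional coactivator and PEX19 is the cytosolic receptor for proteins of the peroxisomal membrane.

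The genes that the study also followed by qPCR fell on both sides, and ERV25 served there as the control gene for normalization. PRY3, a surface protein, had 398, 292, 226 and 317 TPM in Phenol and 90.9, 107, 104 and 115 TPM in RNeasy (log2 fold change 1.53, SE 0.18). SED1, an abundant wall protein, had 15600, 12800, 8010 and 9070 TPM in Phenol and 4120, 4870, 4530 and 3820 TPM in RNeasy (1.35, SE 0.22). JNM1, a dynactin subunit, had 9.79, 10.7, 12.9 and 13.3 TPM in Phenol and 26.4, 21.7, 22.7 and 24.1 TPM in RNeasy (-0.97, SE 0.14). LAS17, EAF7 and RRP36 are given above. The control ERV25, a cargo receptor of COPII vesicles with 2 windows, did not pass the test. It had 334 to 369 TPM in Phenol and 313 to 347 TPM in RNeasy and a log2 fold change of 0.10 (adjusted p = 0.28 by limma). In heat-shocked cells it was higher in Phenol (0.475, adjusted p = 4.2e-05 by limma), but the difference between unstressed and heat-shocked cells did not pass (-0.373, adjusted p = 0.99 by limma).

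A set of 52 gene lists covered 1764 of the tested transcripts, and members of these lists other than the extremes were named after their values were seen. The median log2 fold change was above 0 in 26 lists and below 0 in the other 26. Members were called in both directions in 32 lists, upward alone in 15, downward alone in 4 and in neither direction in 1. On the TPM as deposited the sign of 14 list medians changed and with quantile normalization that of 6. None of the 28 lists with a median above 0.4 or below -0.15 changed sign under these or under median-of-ratios scaling. The deposited TPM moved the median of all transcripts from -0.01 to -0.29, so lists beyond these uneven limits could hardly change sign there. For that setting the count is no test.

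**Figure D2:**
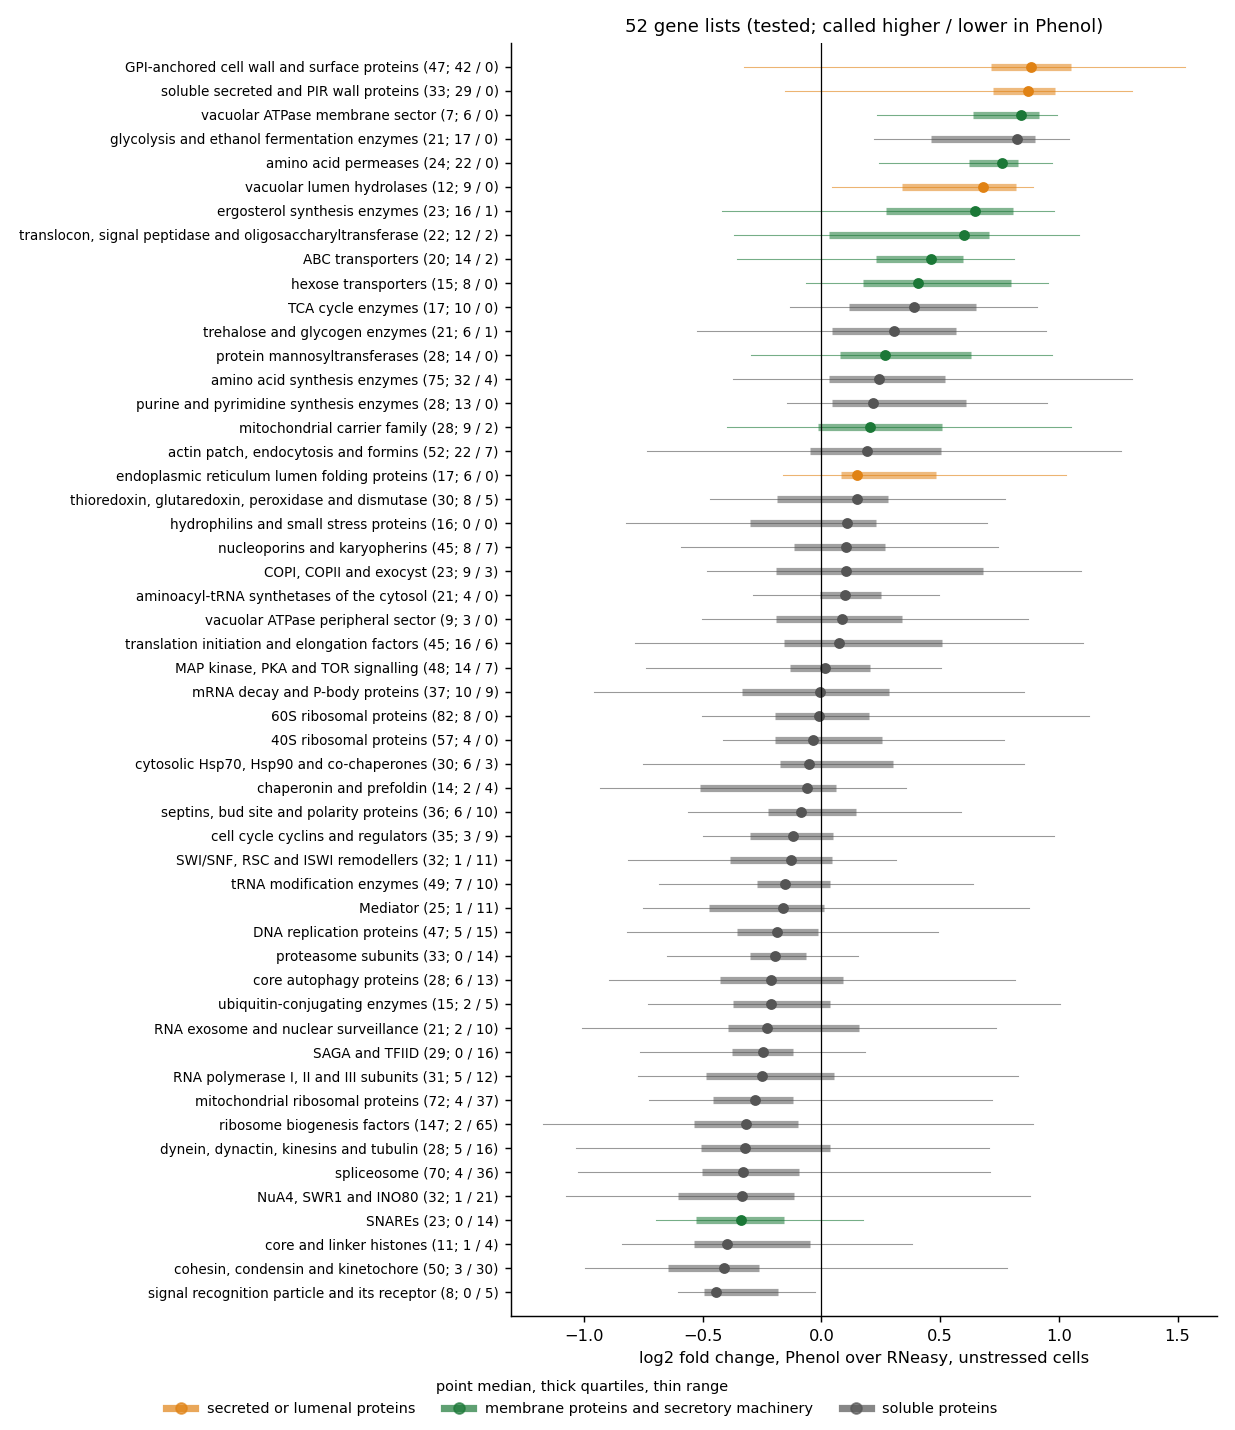
Log2 fold change (Phenol over RNeasy) of the tested members of 52 gene lists; dots are medians, thick bars quartiles and thin bars the full range, and the labels give members tested and those higher and lower. Orange marks secreted and lumenal proteins, green membrane proteins and secretory machinery, grey soluble proteins. GPI-anchored wall proteins are at the top with a median of 0.88, and the signal recognition particle is at the bottom with -0.45.

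Proteins that pass through the secretory pathway and end up outside a membrane were recovered more with Phenol. Of 47 GPI-anchored wall and surface proteins, which lose their hydrophobic tail when the lipid anchor is attached, 42 rose and none fell, with a median log2 fold change of 0.88. Of the 47, 40 have a window in the encoded chain, so by the rule used here they also count among the predicted membrane proteins. The 5 that did not pass were GAS2, GAS4, SPS22 and CRR1, known for the spore wall, and the flocculin FLO9, with values between -0.32 for CRR1 and 0.21 for GAS2. Their levels were low, with means from 0.35 TPM (SPS22 in RNeasy) to 5.6 TPM (GAS2 in Phenol). At such levels the 1 TPM added before taking logarithms understates a change. Among 33 soluble secreted and PIR wall proteins 29 rose and none fell (median 0.87), and 15 of the 33 have no window. The 4 asparaginase genes ASP3-1 to ASP3-4 carry identical values, and counted once they leave 26 of 30 higher (median 0.91). CTS1, the chitinase of cell separation, averaged 2500 TPM in Phenol and 1159 TPM in RNeasy (1.10), DSE2 of the daughter cell wall 1092 and 494.4 TPM (1.12), and CIS3, a PIR protein, 3653 and 1673 TPM (1.11). The abundant CCW12 took 3.46%, 2.54%, 2.83% and 2.88% of the deposited TPM in the Phenol libraries and 1.76%, 1.91%, 2.0% and 1.7% in the RNeasy libraries.

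Hydrolases of the vacuolar lumen, listed together with NPC2 (0.77), which is not a hydrolase, showed the same direction, with 9 of 12 higher, none lower and a median of 0.68. APE3, an aminopeptidase, had 1990, 1710, 1510 and 1560 TPM in Phenol and 849, 983, 929 and 864 TPM in RNeasy (log2 fold change 0.89, SE 0.092). PRC1 (carboxypeptidase Y) was at 0.83 and PEP4 (proteinase A) at 0.82. The 3 that did not pass included APE1 (0.20) and AMS1 (0.04), both known to reach the vacuole from the cytosol and not through the endoplasmic reticulum, and SGA1 (0.28), a glucoamylase of sporulation. The list of folding proteins of the lumen of the endoplasmic reticulum was more mixed, with 6 of 17 higher, none lower and a median of 0.15 that was -0.15 on the TPM as deposited. Of the 17, 15 have a window, so by the rule used here they also count among the predicted membrane proteins. ERP1 (0.84), which rose, and EMP47 (0.07) have 2 windows each and are not lumenal folding proteins. PDI1, the protein disulfide isomerase, had 2240, 1910, 1890 and 1820 TPM in Phenol and 916, 1040, 1000 and 882 TPM in RNeasy (1.03, SE 0.094), whereas the lectin YOS9, at 30.3 to 37.5 TPM in Phenol and 36.6 to 38.5 TPM in RNeasy, had a log2 fold change of -0.16 and did not pass.

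The machinery that brings proteins into the secretory pathway was mixed. None of 8 mRNAs of the signal recognition particle and its receptor rose and 5 fell, with a median of -0.45. SRP21 had 214, 205, 184 and 256 TPM in Phenol and 333, 285, 315 and 372 TPM in RNeasy (log2 fold change -0.60, SE 0.091), and SRP14, SRP68, SRP72 and SEC65 lay between -0.53 and -0.42. In contrast 12 of 22 mRNAs of the translocon, signal peptidase and oligosaccharyltransferase rose and 2 fell (median 0.60). SEC61, the channel itself with 4 windows, had 1040, 761, 828 and 813 TPM in Phenol and 381, 439, 415 and 378 TPM in RNeasy (1.08, SE 0.11). Its partner SSS1, a tail-anchored subunit of the same channel, had 195, 188, 267 and 216 TPM in Phenol and 260, 284, 248 and 321 TPM in RNeasy. These groups overlapped, and its log2 fold change of -0.37 passed only narrowly (adjusted p = 0.0081 by limma), and no longer passed when any single library other than Phenol replicate 3 was left out (adjusted p of 0.0101 to 0.0435).

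SNAREs, membrane proteins that drive vesicle fusion and mostly carry a single anchor at their C terminus, went against the other membrane proteins: none of 23 rose and 14 fell, with a median of -0.34, although 19 of them have a window. UFE1, the SNARE of the endoplasmic reticulum, had 21.0, 36.0, 25.4 and 32.6 TPM in Phenol and 46.2, 41.1, 43.2 and 55.8 TPM in RNeasy (log2 fold change -0.70, SE 0.14). SNC2 was at -0.63, the vacuolar VAM3 at -0.62 and the Golgi SNARE TLG1 at -0.60. Of 23 coat and tethering proteins 9 rose and 3 fell, and the median of 0.10 was -0.20 on the TPM as deposited. The COPII coat and its regulators, which are peripheral to the membrane, had 6 of the 9, with SEC31 (1.09), SEC23 (1.03), SEC24 (0.93), SFB3 (0.69), SEC16 (0.30) and the GTPase SAR1 (0.80), while SEC13 (0.06) and SFB2 (0.10) did not pass. In the COPI coat COP1 (0.68) and RET2 (0.77) rose and SEC28 (-0.48) fell, and in the exocyst SEC3 (0.29) rose and SEC6 (-0.44) and EXO70 (-0.29) fell.

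The vacuolar ATPase, a proton pump with a sector in the membrane and a sector in the cytosol, gave a comparison within a single machine. In the membrane sector 6 of 7 mRNAs rose and none fell (median 0.84), with VMA11 at 391, 392, 335 and 377 TPM in Phenol and 176, 197, 172 and 205 TPM in RNeasy. In the peripheral sector 3 of 9 rose and none fell, and the median of 0.09 was -0.22 on the TPM as deposited. VMA1, the catalytic subunit, had 575, 497, 614 and 478 TPM in Phenol and 291, 333, 294 and 262 TPM in RNeasy (log2 fold change 0.87, SE 0.093). VMA10, a stalk subunit, had 269, 346, 483 and 380 TPM in Phenol and 535, 519, 482 and 515 TPM in RNeasy (-0.50, SE 0.17), with overlapping groups, and it did not pass (adjusted p = 0.016 by limma) although it did without Phenol replicate 3 (adjusted p = 0.00273).

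Lists of membrane proteins rose as a group and are given for comparison only. Of 24 amino acid permeases 22 rose (median 0.76), of 15 hexose transporters 8 (0.41), of 20 ABC transporters 14 rose and 2 fell (0.46) and of 28 mannosyltransferases 14 rose (0.27, but -0.03 on the TPM as deposited), all 6 PMT enzymes of the list among them. Among the hexose transporters that did not pass, HXT8, HXT9, HXT10, HXT11, HXT14 and GAL2 averaged at most 0.85 TPM in either method, too low to judge. The 2 ABC transporters that fell were PXA1 and PXA2, which import fatty acids into peroxisomes. PXA1 (log2 fold change -0.36) no longer passed without Phenol replicate 1 (adjusted p = 0.0126 by limma) or without RNeasy replicate 3 (0.0124). Mitochondrial carriers, membrane proteins of which only 9 of 28 had a predicted window, counted 9 higher and 2 lower (median 0.21, but -0.09 as deposited), led by the ADP/ATP carrier PET9 (1.05). Enzymes of ergosterol synthesis counted 16 of 23 higher and 1 lower (median 0.65), and IDI1, a cytosolic enzyme, was the 1 that fell (-0.42).

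Glycolysis and ethanol fermentation, a soluble pathway in the cytosol, was recovered more with Phenol. Of 21 enzymes 17 rose and none fell, with a median log2 fold change of 0.83, and 1 of the 21 has a window. PDC1, the main pyruvate decarboxylase, had 18500, 14700, 19000 and 17200 TPM in Phenol and 7930, 9150, 8880 and 7630 TPM in RNeasy (1.04, SE 0.14). With quantile normalization it did not pass (0.35, adjusted p = 0.013 by limma), and the median of the list was 0.35. ENO2 (enolase) averaged 11930 TPM in Phenol and 5896 TPM in RNeasy, ADH1 (alcohol dehydrogenase) 9541 and 4744 TPM, and TDH3 (glyceraldehyde-3-phosphate dehydrogenase) 27780 and 14760 TPM. The 4 that did not pass were TPI1 (0.42), GPM1 (0.34), PDC6 (0.28) and HXK1 (0.22). Several of these enzymes have near-identical copies, such as ENO1 and ENO2 or TDH1 and TDH3, whose reads can be shared between copies.

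The other metabolic lists had lower medians. The TCA cycle counted 10 of 17 higher and none lower (median 0.39), with the 4 subunits of succinate dehydrogenase SDH1 to SDH4 between 0.49 and 0.91. Amino acid synthesis counted 32 of 75 higher and 4 lower, with a median of 0.24 that was -0.06 on the TPM as deposited. Next to ILV6 and CYS3 the threonine enzyme THR1 rose to a mean of 907.3 TPM in Phenol, against 412.4 TPM in RNeasy (1.13), and SHM2, a serine hydroxymethyltransferase, was at 0.98. Purine and pyrimidine synthesis counted 13 of 28 higher and none lower, with a median of 0.22 that was -0.09 as deposited. ADE5,7, listed in the reference as ADE57, had 341, 265, 346 and 333 TPM in Phenol and 162, 163, 172 and 162 TPM in RNeasy (0.95, SE 0.09). Trehalose and glycogen enzymes counted 6 of 21 higher and 1 lower (0.31). Their levels varied between cultures, and TSL1, a subunit of trehalose synthase, had 192, 295, 201 and 102 TPM in Phenol and 75.2, 168, 114 and 57.3 TPM in RNeasy, with overlapping groups but a higher Phenol value in each of the 4 pairs. It passed with an adjusted p of 0.0029 by limma, but not without Phenol replicate 1 or 2 or RNeasy replicate 1 or 4 (adjusted p of 0.0109 to 0.0157), nor on the TPM as deposited (0.0231). Antioxidant proteins of the thioredoxin, glutaredoxin, peroxidase and dismutase families counted 8 of 30 higher (26.7%) and 5 lower (16.7%). These shares were near those over all transcripts (23.5% and 20.3%). Their median of 0.15 was -0.15 as deposited and -0.02 after quantile normalization.

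The ribosome itself had small median changes after scaling, and their direction could not be fixed. Of 57 proteins of the 40S subunit 4 rose and none fell, and of 82 of the 60S subunit 8 rose and none fell, far below the 43.7% called over all transcripts. The SE was 0.16 for RPP0, 0.21 for RPS29B, 0.24 for RPL35B and 0.25 for RPS1A, against a median of 0.095 over all transcripts. Few calls therefore do not by themselves show a small shift. The 40S and 60S medians were -0.04 and -0.01, but -0.34 and -0.31 on the TPM as deposited. In single same-number pairs the 40S median ran from -0.29 to 0.37 and the 60S median from -0.17 to 0.34. Leaving out single libraries moved the 40S median between -0.31 and 0.19 and the 60S median between -0.25 and 0.18. The 8 that rose in the 60S list included the 5 proteins of its stalk, the lateral arm that recruits elongation factors, a group picked out after the calls were seen: RPP0 (1.13), RPP2A (0.94), RPP1B (0.85), RPP1A (0.80) and RPP2B (0.72). RPP0 had 5870, 5190, 5910 and 5800 TPM in Phenol and 2450, 2740, 2650 and 2580 TPM in RNeasy, with clearly separate groups. The other 3 were RPL4A, RPL4B and RPL16B. RPL35B, at the other end of the list, had 1140, 1350, 1640 and 1500 TPM in Phenol and 2070, 1880, 1880 and 2080 TPM in RNeasy but did not pass (-0.50, adjusted p = 0.087 by limma). It passed as lower with a replicate block within each treatment (-0.50, adjusted p = 0.00285), with quantile normalization (-0.94, 0.00273) and on the TPM as deposited (-0.81, 0.00724). Of its 50-base sequences 80.6% also occur in another ORF, so its reads cannot be fully told apart from those of its copy.

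Factors that act on the ribosome split. Translation initiation and elongation factors counted 16 of 45 higher and 6 lower, with a median of 0.07 that was -0.23 as deposited and -0.19 after quantile normalization. Some elongation factors were among those that rose: TEF4 had 2970, 2450, 2910 and 2400 TPM in Phenol and 1140, 1310, 1260 and 1270 TPM in RNeasy (log2 fold change 1.10, SE 0.15), EFT2 was at 0.92 and YEF3 at 0.72. Of the more abundant ones, TEF1 rose less (0.39) and TEF2 did not pass (0.35, adjusted p = 0.0494 by limma). TEF4 overlaps the small nucleolar RNA gene SNR38, whose reads could not be told apart from its own. Some initiation factors were among those that fell, with TIF11 (eIF1A) at 499, 508, 719 and 548 TPM in Phenol and 1020, 956, 963 and 946 TPM in RNeasy (-0.79, SE 0.15) and CDC33 (eIF4E) at -0.39. The helicase DED1 (0.91), also an initiation factor, rose. Cytosolic aminoacyl-tRNA synthetases counted 4 of 21 higher and none lower, with a median of 0.10 that was -0.20 as deposited and -0.14 after quantile normalization.

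The longest list, the proteins that build ribosomes, was recovered less. Of 147 ribosome biogenesis factors 2 rose and 65 fell, with a median of -0.32. NOP1, the fibrillarin that methylates rRNA, was an exception with 1110, 894, 1210 and 1250 TPM in Phenol and 599, 578, 628 and 585 TPM in RNeasy (log2 fold change 0.89, SE 0.13), and TIF6 (0.63) was the other. Besides RRP36, RRP14 and CGR1, the losses included NOP53 (-0.99), EBP2 (-0.95), LOC1 (-0.95) and RRP15 (-0.94). Ribosomal proteins of the mitochondrion, which are encoded in the nucleus, also fell, with 4 of 72 higher, 37 lower and a median of -0.28. MRPL25 had 28.4, 31.1, 48.2 and 37.0 TPM in Phenol and 63.8, 59.0, 56.2 and 58.7 TPM in RNeasy (-0.73, SE 0.14), whereas MRPS12 had 169, 176, 160 and 183 TPM in Phenol and 107, 108, 97.7 and 103 TPM in RNeasy (0.72, SE 0.083). Enzymes that modify tRNA counted 7 of 49 higher and 10 lower (median -0.15), and their 20.4% lower was close to the 20.3% over all transcripts.

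The complexes of chromatin and transcription were all on the same side, but had single members that went the other way. The chromatin complexes NuA4, SWR1 and INO80 counted 1 of 32 higher and 21 lower (median -0.33), and the 1 that rose was ACT1, actin, which is shared with the cytoskeleton and had 3210, 2890, 3420 and 2750 TPM in Phenol and 1600, 1860, 1660 and 1540 TPM in RNeasy (log2 fold change 0.88, SE 0.099). EAF5 (-0.81), YNG2 (-0.75) and the acetyltransferase ESA1 (-0.66) fell together with EAF7. SAGA and TFIID counted none of 29 higher and 16 lower (-0.25), led by NGG1 with 41.8, 43.8, 43.4 and 40.6 TPM in Phenol and 77.5, 71.3, 70.7 and 71.9 TPM in RNeasy (-0.77, SE 0.055). Mediator counted 1 of 25 higher and 11 lower (-0.16), SWI/SNF, RSC and ISWI 1 of 32 higher and 11 lower (-0.13), and the 3 RNA polymerases 5 of 31 higher and 12 lower (-0.25). RPB7 and RPB5, both subunits of RNA polymerase II, differed in direction. RPB7 had 295, 235, 248 and 239 TPM in Phenol and 137, 152, 139 and 142 TPM in RNeasy (0.83), and RPB5 had 158, 157, 179 and 173 TPM in Phenol and 301, 256, 292 and 293 TPM in RNeasy (-0.77).

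Splicing and chromosome proteins also fell. Of 70 spliceosome proteins 4 rose and 36 fell (median -0.33), with SMB1 at -0.84 and SLU7 at -0.82 beside PRP3, and NAM8 (0.71) and SNU13 (0.61) higher. Cohesin, condensin and kinetochore proteins counted 3 of 50 higher and 30 lower (median -0.41). KRE28 had 12, 19.3, 13.9 and 22.1 TPM in Phenol and 32.3, 29.3, 32.4 and 41.5 TPM in RNeasy (-1, SE 0.13). DNA replication counted 5 of 47 higher and 15 lower (-0.19). Within that list MCM3, MCM4, MCM6 and MCM7 of the replicative helicase rose slightly, by 0.23 to 0.41, while DPB3 of DNA polymerase epsilon fell (-0.82). Of 11 histones 1 rose and 4 fell (-0.40). Their median was not stable: it ran from -0.60 to 0.22 in single same-number pairs and was -0.02 in heat-shocked cells. The 1 that rose, HTB2 (0.38), did not pass on the TPM as deposited (adjusted p = 0.25 by limma) or with quantile normalization (0.0842). CSE4, the histone H3 of centromeres, had 39.4, 38.9, 32.7 and 36.2 TPM in Phenol and 66.9, 59.5, 64.1 and 76.5 TPM in RNeasy (-0.84, SE 0.089). The canonical histones come from near-identical gene pairs, whose reads can be shared between copies.

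RNA turnover and transport lists were mixed. The RNA exosome and nuclear surveillance list counted 2 of 21 higher and 10 lower (median -0.23), with the exosome cofactors LRP1 (log2 fold change -1.01) and MPP6 (-1) lowest. LRP1 had 86.4, 72.1, 86.3 and 95.1 TPM in Phenol and 171, 150, 159 and 210 TPM in RNeasy. Cytoplasmic mRNA decay and P-body proteins counted 10 of 37 higher (27.0%) and 9 lower (24.3%), near the 23.5% and 20.3% over all transcripts. The sign of their median of -0.004 changed when single libraries were left out (-0.03 to 0.03). The helicase DHH1 (0.62) and the deadenylase CCR4 (0.49) rose, and the LSM proteins LSM1, LSM3, LSM4 and LSM7 fell, with log2 fold changes of -0.81 to -0.44, as did UPF3 of nonsense-mediated decay (-0.96). Nucleoporins and karyopherins counted 8 of 45 higher and 7 lower, with a median of 0.10 that was -0.20 as deposited. KAP95 and KAP123, which carry proteins into the nucleus, rose (0.68 and 0.74), although KAP123 did not pass on the TPM as deposited (0.44, adjusted p = 0.0204 by limma), and MLP1 and MLP2, long coiled-coil proteins of the nuclear basket, fell (-0.56 and -0.59).

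Both lists of the cytoskeleton held members that rose and members that fell. Actin patch, endocytosis and formin proteins counted 22 of 52 higher and 7 lower, with a median of 0.19 that was -0.10 as deposited, and LAS17, VRP1, SYP1 (1.11), ACT1 and EDE1 (0.82) led them. The tropomyosins TPM1 (-0.53) and TPM2 (-0.73), coiled-coil proteins that coat actin cables, fell. The list of dynein, dynactin, kinesins and tubulin counted 5 of 28 higher and 16 lower (median -0.32). The tubulins TUB1 (0.52), TUB2 (0.70) and TUB4 (0.48) rose, while DYN3 of dynein, JNM1 of dynactin and the kinesins KAR3 (-0.81) and CIN8 (-0.61) fell. DYN3 had 15.9, 18.8, 22.2 and 19.3 TPM in Phenol and 40, 36.9, 38.0 and 44.6 TPM in RNeasy (SE 0.099), and TUB2 had 678, 607, 666 and 604 TPM in Phenol and 387, 416, 390 and 372 TPM in RNeasy (SE 0.065). Septins, bud site and polarity proteins counted 6 of 36 higher and 10 lower (-0.08), with CDC42 at 0.59 and the septin CDC3 at -0.56.

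In protein quality control none of 33 proteasome subunits rose and 14 fell (median -0.20), with SEM1 at 268, 352, 228 and 369 TPM in Phenol and 463, 419, 433 and 577 TPM in RNeasy (log2 fold change -0.65, SE 0.14). Ubiquitin-conjugating enzymes counted 2 of 15 higher and 5 lower (-0.21), with UBC5 higher at 71.7, 65.5, 61.2 and 60.9 TPM in Phenol and 28.2, 34.7, 30.5 and 34.0 TPM in RNeasy (1.00, SE 0.083). In the chaperonin and prefoldin list 2 of 14 rose and 4 fell (-0.06). All 4 that fell, GIM4, YKE2, GIM3 and GIM5, belong to prefoldin, which delivers actin and tubulin chains, and GIM4 had 68.6, 88.0, 113 and 131 TPM in Phenol and 184, 158, 179 and 232 TPM in RNeasy (-0.93, SE 0.15). Both that rose, CCT6 (0.36) and TCP1 (0.21), belong to the chaperonin ring, but CCT6 no longer passed on the TPM as deposited (0.05, adjusted p = 0.377 by limma). Cytosolic Hsp70 and Hsp90 proteins and their co-chaperones counted 6 of 30 higher and 3 lower, and their median of -0.05 reached 0.02 when a single library was left out. The 6 that rose were Hsp70 proteins or relatives such as SSB1 (0.85), of which 43.2% of the 50-base sequences are shared with a copy, and the 3 that fell, CNS1 (-0.75), CDC37 (-0.51) and SGT1 (-0.32), are Hsp90 co-chaperones.

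Cyclins and cell cycle regulators counted 3 of 35 higher and 9 lower (median -0.12), and the G1 cyclin CLN3, at 274, 243, 191 and 272 TPM in Phenol and 106, 126, 127 and 132 TPM in RNeasy (log2 fold change 0.98, SE 0.15), stood against PDS1 (-0.50), the securin. MAP kinase, PKA and TOR signalling counted 14 of 48 higher and 7 lower, with a median of 0.01 that was -0.28 as deposited and just below 0 after quantile normalization. Core autophagy proteins leaned lower, with 6 of 28 higher and 13 lower (-0.21). Among these the membrane protein ATG22 (0.82) and the lipase ATG15 (0.76) rose and ATG12 (-0.89) and ATG17 (-0.84) fell. Hydrophilins and small stress proteins had no call among 16, and their median of 0.11 was -0.19 as deposited. They differed strongly between cultures, as with DDR2 at 30.9, 93.0, 85.0 and 25 TPM in Phenol and 35, 46.3, 22.7 and 22.9 TPM in RNeasy.

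The annotated compartments, divided by the predicted window, gave the same picture with more genes. Nucleolar proteins without a window counted 6 of 200 higher and 98 lower (median -0.36), and nuclear proteins without a window 128 of 1274 higher and 397 lower (-0.16). Cytosolic proteins without a window counted 286 of 1573 higher and 374 lower (-0.06) and mitochondrial ones 162 of 813 higher and 195 lower (-0.05). Wall and extracellular proteins rose with a window (53 of 60, none lower, median 0.88) and without (25 of 34, none lower, 0.79). In the endoplasmic reticulum and the vacuole the medians with and without a window lay further apart: 297 of 497 proteins of the endoplasmic reticulum with a window rose and 25 fell (0.48), against 31 and 23 of 91 without a window (0.01), and 207 of 329 vacuolar proteins with a window rose and 10 fell (0.55), against 29 and 26 of 109 without (0.01). ORFs annotated in several coding parts that do not encode ribosomal proteins counted 33 of 207 higher and 49 lower (-0.11), equal in median to all ORFs without a window. This class holds genes with an intron but also retrotransposon ORFs, so it is not a count of intron genes alone.

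Base composition ran through these lists. Over 5658 ORFs the log2 fold change fell as the share of A in the ORF rose (r = -0.745, rho = -0.756), and it did so in each of the 4 same-number pairs (r of -0.74 to -0.544). This correlation is across transcripts, which share their libraries and are not independent replicates. Among ORFs without a window r was -0.68 (n = 3969) and among those with a window -0.759 (n = 1689). It was weaker for C (0.51), T (0.44) and GC content (0.374), near 0 for G (-0.05), and weak for ORF length (0.13), the longest run of A (-0.215) and the level of the transcript (0.188). The share of lysine codons, which are rich in A, gave -0.51. A line on A content alone took up 55.5% of the variance of the fold changes, the window alone 14.1% and both together 56.9%, and the coefficient of the window was 0.369 alone and 0.125 beside A content.

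Divided into 5 bins of equal size by A content, the ORFs with the least A (16.7% to 29.4%) counted 760 of 1132 higher and 1 lower, with a median log2 fold change of 0.65. In the next 3 bins the medians were 0.18, -0.04 and -0.17. The ORFs with the most A (35.5% to 47.4%) counted 14 of 1132 higher and 689 lower, with a median of -0.42. Without a window the medians of the 5 bins were 0.48, 0.13, -0.08, -0.18 and -0.43, and with a window 0.73, 0.31, 0.06, -0.14 and -0.34, so both kinds of ORF changed direction between the second and the fourth bin. The 94 transcripts at least 2-fold higher had a median A content of 26.2%, and the 12 at least 2-fold lower 42.8%.

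**Figure D3:**
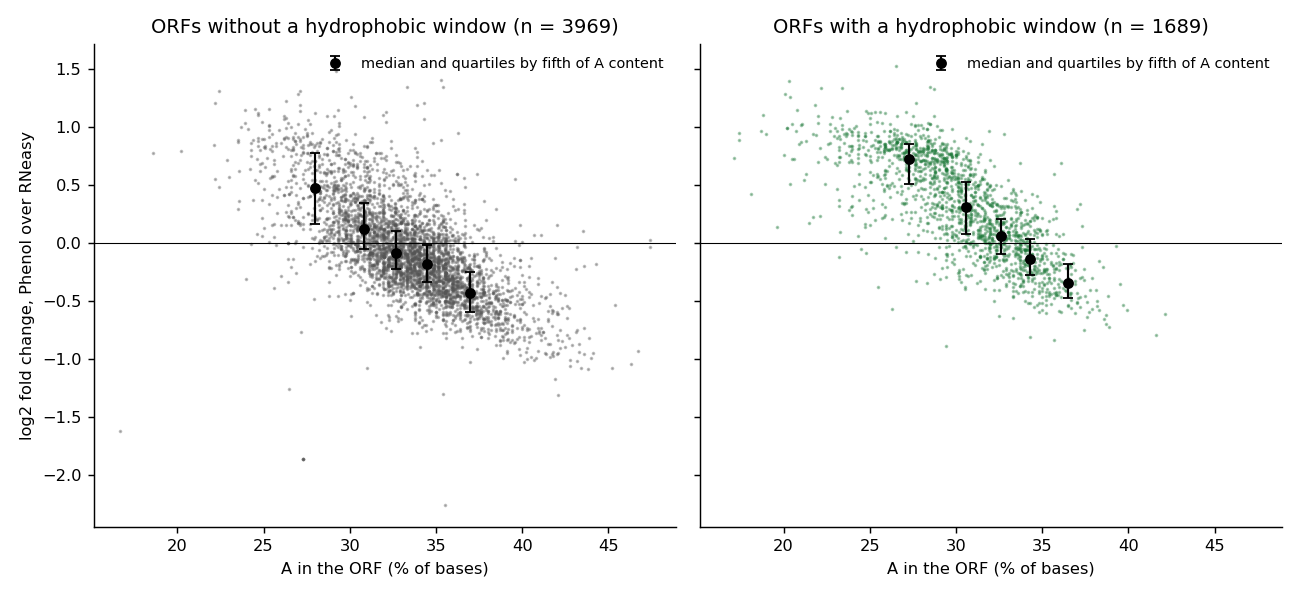
Log2 fold change (Phenol over RNeasy) against the A content of the ORF in percent, for ORFs without a hydrophobic window (left, n = 3969) and with a window (right, n = 1689). Black marks give the median and quartiles in each of 5 bins of A content, whose medians run from 0.48 to -0.43 on the left and from 0.73 to -0.34 on the right.

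The same order held between lists, where the median A content and the median log2 fold change had r = -0.875 over 52 lists and -0.809 over the 39 lists of soluble proteins, both as a description. Some lists lay off the line of A content. Secreted (0.31), GPI-anchored (0.284) and vacuolar lumen proteins (0.28) had medians above it, and histones (-0.389), ubiquitin-conjugating enzymes (-0.29), the proteasome (-0.238) and the 40S proteins (-0.217) below it. The median log2 fold changes of the histones and of the 40S proteins changed sign between single same-number pairs. The mean A content of the ORFs, weighted by the deposited TPM and not by length, was 29.03% to 29.45% in the Phenol libraries and 30.36% to 30.76% in the RNeasy libraries, with no overlap. It was 30.23% to 30.5% in the 4 Direct-zol libraries of the same cultures. Within a method the deviations of single libraries correlated with A content by -0.255 to 0.192 for Phenol and -0.248 to 0.27 for RNeasy. What links A content and recovery was not tested.

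In shares of the deposited TPM, which need no scaling between libraries, GPI-anchored proteins held 9.087%, 7.505%, 6.491% and 7.691% in the Phenol libraries and 4.236%, 4.688%, 4.615% and 4.356% in the RNeasy libraries, or 7.693% ± 1.07 and 4.474% ± 0.213 (SD, n = 4 each). Glycolysis and fermentation held 10.54%, 9.55%, 10.9% and 9.773% in Phenol and 7.324%, 7.714%, 7.346% and 6.648% in RNeasy. Neither pair of groups overlapped. Ribosome biogenesis factors held 1.585%, 1.58%, 1.54% and 1.891% in Phenol and 2.498%, 2.107%, 2.365% and 2.936% in RNeasy. The proteasome held 0.5752% ± 0.0331 in Phenol and 0.8195% ± 0.00419 in RNeasy, and the mitochondrial ribosome 0.4514% ± 0.0296 and 0.6483% ± 0.0173. The 60S proteins held 12.82% to 15.73% in Phenol and 15.38% to 15.81% in RNeasy, so these groups overlapped, while the 40S proteins held 9.064% to 11.72% and 11.89% to 12.35%. A share also falls where other transcripts rise.

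**Figure D4:**
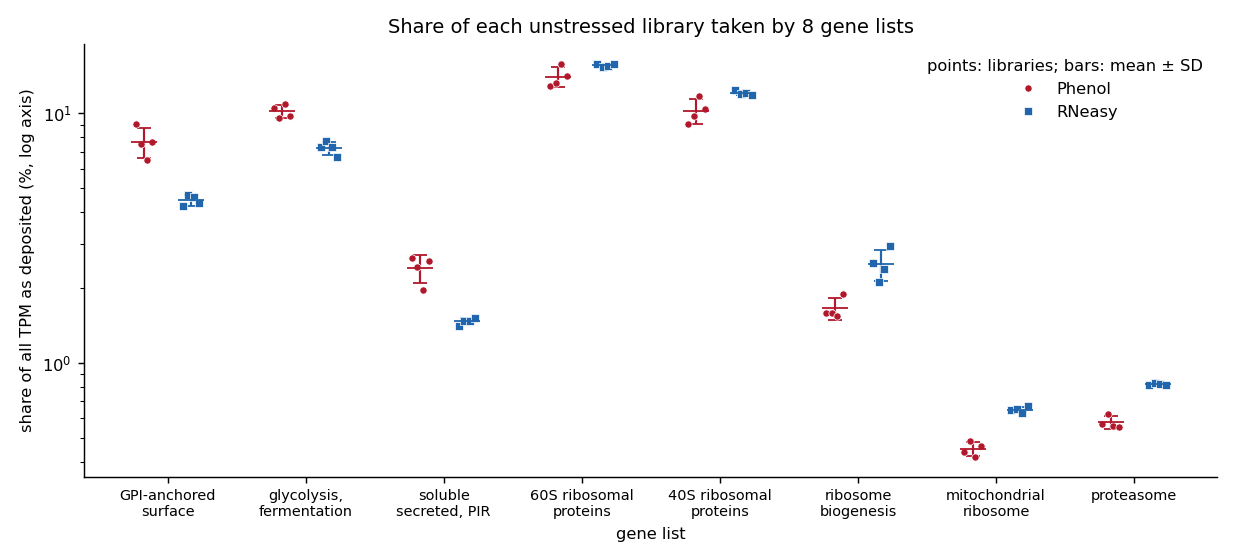
Share of the deposited TPM (percent, log axis) taken by 8 gene lists in each Phenol and RNeasy library of unstressed cells; points are libraries, and bars are the mean ± SD (n = 4). The GPI-anchored list averages 7.693% in Phenol and 4.474% in RNeasy, and the ribosome biogenesis list 1.649% in Phenol and 2.477% in RNeasy.

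The same cultures were also sampled after 20 min at 37 °C, in libraries that the comparison above did not average, although all libraries entered the same fit. There 2676 transcripts (45.6%) differed between Phenol and RNeasy, with 1419 higher and 1257 lower in Phenol. Of the 2568 transcripts that differed in unstressed cells, 2188 differed in the same direction after heat shock, none in the opposite direction and 380 did not pass, while 2559 had the same sign. Across the 5870 transcripts the log2 fold changes had r = 0.874 and a slope of 0.925. The test of the difference between unstressed and heat-shocked cells called 0 transcripts in limma, with 251 at an unadjusted p under 0.05 and a smallest adjusted p of 0.311. With a replicate block within each treatment it called 1, HBT1, with log2 fold changes of 0.18 in unstressed and 0.87 in heat-shocked cells (adjusted p of the difference 0.00433 by limma). The correlation with A content was -0.782 after heat shock.

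**Figure D5:**
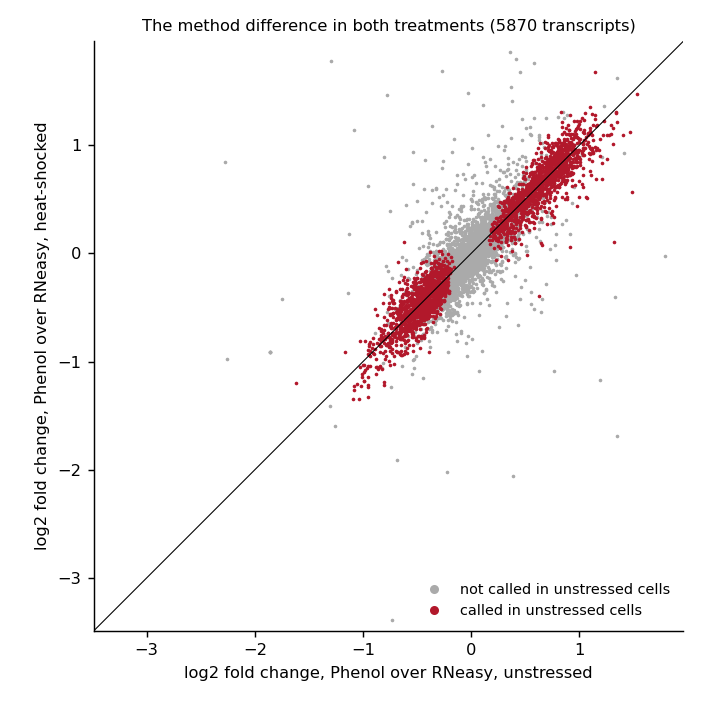
Log2 fold change (Phenol over RNeasy) of 5870 transcripts in unstressed cells (x axis) and after 20 min at 37 °C (y axis); red points are the 2568 transcripts that differed in unstressed cells. The points follow a slope of 0.925 (r = 0.874), and 2559 of the 2568 have the same sign on both axes.

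RNeasy and the other kit, Direct-zol, were compared in the same fit, with the RNeasy libraries shared by both comparisons. Between RNeasy and Direct-zol 235 transcripts (4.0%) differed in unstressed cells, 173 higher and 62 lower in RNeasy, and the median absolute log2 fold change was 0.13. This split was not stable: it was 261 higher and 479 lower with only the libraries compared and a replicate block, and 752 higher and 11 lower on the TPM as deposited. The list medians between the kits were -0.06 for GPI-anchored proteins, -0.16 for soluble secreted proteins, -0.28 for glycolysis and 0.01 for ribosome biogenesis factors. Ribosomal proteins had lower medians in RNeasy than in Direct-zol, with -0.34 for the 40S and -0.35 for the 60S list, but none of their members passed the test. The log2 fold change between the kits correlated with A content at 0.279.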

How the data were processed

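RNA-seq was measured in 24 poly-A libraries of Saccharomyces cerevisiae, with 4 biological replicates of 3 isolation methods in unstressed and heat-shocked cells. The TPM that the authors deposited were made with Trimmomatic, STAR and RSEM on the R64 (sacCer3) genome and carry no scaling between libraries. The authors' edgeR tables hold fold changes (log2) with their p-values for comparisons of the methods and of heat shock; no value of them was used, and only their transcript names served as the filter on low values (5870 of 6685 transcripts). TPM hold no read counts, so the depth per library is unknown and replicate spread alone set the precision.

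Each library was scaled to the mean library by its trimmed mean of log ratios (30% of ratios and 5% of abundances trimmed). After adding a pseudocount of 1, log2 values of all 24 libraries entered limma 3.58.1 under R 4.3.3, in a model of the biological replicate and 6 sample types moderated with a trend. Fold changes are on the log2(scaled TPM + 1) scale, which understates the change of low transcripts, and are Phenol over RNeasy. Benjamini-Hochberg adjustment was over all 5870, and the threshold was an FDR under 0.01. The replicate number pairs libraries because the study split each culture between methods. Deviations of same-number libraries from their group means correlated by -0.137, 0.122, 0.0983 and 0.439 in unstressed cells. The procedure was tested on simulated data.

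ORFs, annotation and coordinates came from the supplied RefSeq copy of R64, which held an ORF for 5658 of the tested transcripts. Hydropathy, base content and 50-base sequences shared between ORFs were computed in Python 3.11.15 with Biopython 1.88, numpy 2.4.6, pandas 2.3.3 and scipy 1.17.1. Genes were named by rule: the 10 highest and 10 lowest fold changes and the 5 smallest p in each direction among called ORFs without a window, with all 4 pairs in the same direction and a mean of at least 10 TPM, the highest and lowest member of each of 52 lists, and the genes of the study's qPCR. Members and lists were chosen with earlier results of these data known. Alternatives were TPM without scaling, median-of-ratios and quantile scaling, pseudocounts of 0.1 and 5, other filters on low values, other uses of the replicate, an FDR under 0.05, and leaving out each library. Counting transcripts with identical values once was added after seeing the data.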

Additional observations from a re-analysis of the deposited data

Results flagged for a closer look

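Single libraries stood apart from the other 3 of their group in 10 of 278 groups of values examined, by a gap over the 95% limit of Dixon's test. Chance alone gives about 1 in 20. Of the 10, 3 lay in Phenol replicate 4, 3 in RNeasy replicate 1, 2 in Phenol replicate 2, 1 in Phenol replicate 1 and 1 in RNeasy replicate 3.

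In Phenol replicate 4 the ribosome biogenesis factors took 1.89% of the TPM, against 1.54% to 1.58% in the other Phenol libraries. RRP14 of that list had 178 scaled TPM there, against 133 to 135, and the hexose transporter HXT14, near the limit of detection, had 0.128, against 0.0735 to 0.0777. RNeasy replicate 4 also had the highest share of ribosome biogenesis factors in its group, 2.936%, and both libraries come from the same culture.

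In RNeasy replicate 1 the lowest values of the group were found for HSP150 (1430 scaled TPM, against 1630 to 1670), TOS6 (705, against 824 to 837) and SEC31 (167, against 197 to 202). All 3 were higher in Phenol. In Phenol replicate 2 RPP0 was lowest at 5190 (others 5800 to 5910) and ADE57 at 265 (others 333 to 346). ADE57 was highest in RNeasy replicate 3 at 172 (others 162 to 163), and PXA1 was lowest in Phenol replicate 1 at 4.8 (others 6.79 to 7.17). In each of these genes the Phenol and RNeasy groups did not overlap, apart from HXT14, whose groups overlapped and which did not pass the test.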

How the results depend on the processing

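On the TPM as deposited the split was 738 higher and 2622 lower in unstressed cells, and 658 higher and 2945 lower in heat-shocked cells. With the same TPM, RNeasy and Direct-zol differed in 763 transcripts, 752 higher and 11 lower in RNeasy. For these kits the count was also 740 (261 higher, 479 lower) with only the libraries compared and a replicate block, 421 (193 lower) with a replicate block within each treatment and 634 (336 higher, 298 lower) at an FDR under 0.05, and quantile normalization left 24 lower. The direction of the difference between the kits is thus not settled.

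The count for Phenol and RNeasy in unstressed cells was 2425 with no replicate block (1308 higher, 1117 lower), 2850 with a block within each treatment, 2199 with only the 8 libraries compared and 3271 at an FDR under 0.05. The difference between unstressed and heat-shocked cells counted 1 transcript, lower, with a replicate block within each treatment and 0 under every other setting run. Leaving out single libraries gave 2257 to 2565 transcripts for unstressed cells (1238 to 1354 higher, 1002 to 1211 lower), 2288 to 2686 for heat-shocked cells and, for RNeasy and Direct-zol, 153 to 322 (128 to 194 higher, 20 to 128 lower).

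Of 130 named genes, all kept their call with median-of-ratios scaling, either other pseudocount and no filter, and 126 did with no replicate block, where 4 no longer passed. With quantile normalization 8 no longer passed and 5 newly passed, with only the libraries compared 5 and 1, and with a block within each treatment 0 and 5. Leaving out single libraries cost 2 to 8 calls, the most without Phenol replicate 1. By more than the spread between pairs, 49 of 52 list medians moved on the TPM as deposited, 26 with quantile normalization and up to 5 without a single library. Counting transcripts with identical values once, chosen after seeing the data, affected 1 list, the soluble secreted proteins. Its median moved by less than that spread, from 0.87 to 0.91. On the TPM as deposited 108 of the named genes kept their call, 10 no longer passed, 11 newly passed as lower, and SSY1 changed sign (-0.0466, against 0.24 with scaling). The correlation with A content was -0.748 on the TPM as deposited. The cause of these shifts was not tested. With no counts in the files, low transcripts such as HXT14 cannot be given a detection limit.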
